A study of Culex quinquefasciatus and Culex pipiens molestus with 2 samples.

Results

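Autophagy and programmed cell death were represented by 58 transcript models among the 16198 that had at least 1 read in females of a pair of house mosquitoes, Culex pipiens molestus and Culex pipiens quinquefasciatus. The members were taken by words in their product descriptions (autophagy, beclin, caspase, apoptosis, programmed cell death, cathepsin or lysosome) and not by any measured value. The words themselves were chosen with earlier results of these data known. They formed 2 classes. The first held 24 models, 11 cathepsins and 13 lysosomal proteins, and the second held 34 models, 10 caspases, 4 autophagy factors and 20 other proteins named for apoptosis or programmed cell death. The descriptions are those deposited, and each member's name is marked there as putative. The words also took in a glucosylceramidase described as non-lysosomal, and models described as hypothetical proteins could not be assigned.

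Caspases are cysteine proteases that are made as inactive precursors and dismantle the cell once they are cut. In insects they are held in check by inhibitor of apoptosis proteins, and Bcl-2 family proteins act on the mitochondrion. Autophagy encloses cytoplasm in a double membrane and delivers it to the lysosome, where cathepsins and other acid hydrolases digest it. In female mosquitoes both processes are known from the fat body and the ovary, where yolk synthesis is shut down after an egg batch and some follicles are resorbed.

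For each taxon, a laboratory strain, RNA of 30 females was pooled, selected for polyadenylated RNA and sequenced as 1 library. Age, feeding and mating state, and whether whole bodies were used, were not stated in the labels. The molestus library held 9.79 M and the quinquefasciatus library 10.17 M uniquely assigned reads. The tables carry the abbreviations Cxm and Cxq, and every direction below rests on reading them as molestus and quinquefasciatus. With 1 library per taxon there was no replicate error and no test could be run. Intervals of folds and of shares of a library are exact 95% intervals that cover counting error only. PCR copies without molecular identifiers are not independent molecules. Intervals of list medians are taken over the models of a list and measure neither counting error nor replicate error. Models of 1 library are not replicates of a taxon. In pooled RNA, fewer cells of a type and less RNA per cell cannot be told apart.

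By median ratio, models of cell death and autophagy leaned toward the molestus library, and cathepsins and lysosomal proteins leaned slightly toward the quinquefasciatus library. Levels were compared as RPKM (reads assigned to a model, scaled to its length in kilobases and to the library total), and a log2 ratio was that of (RPKM + 1) in molestus over quinquefasciatus. A model was compared when it reached 1 RPKM in at least 1 library, which 51 of the 58 members and 12789 of all models did. Among the 33 compared caspases, autophagy factors and apoptosis proteins, 8 stood 2-fold or more above in molestus and 1 in quinquefasciatus. Over all compared models these shares were 22.8% and 18.0%. The molestus share of 24.2% was therefore near the background, while the quinquefasciatus share of 3.03% was below it. The median log2 ratio of these 33 models was 0.51 (0.22 to 0.69 over members), against 0.18 over all compared models.

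At 4-fold the counts were 2 and 0, where 4.81% and 3.97% of all compared models were called. The direction within this class was common to most of its members, with 26 of 33 higher in molestus by any amount (78.8%, against 55.4% of all compared models). Rescaled by the median ratio, these were 22 of 33 (66.7%, against 47.3%). The 18 compared cathepsins and lysosomal proteins showed the opposite balance, with 12 higher in quinquefasciatus by any amount (66.7%, against 44.6% of all). Of these 18 models, 3 reached 2-fold in molestus and 2 in quinquefasciatus, shares of 16.7% and 11.1%, and at 4-fold 0 and 1. Their median ratio was -0.26 (-0.35 to 0.60), an interval over members that included 0. The size of the lean depended on level and scale. Among models of at least 10 RPKM the median over all models was 0.47, and the medians of the classes were 0.60 for the cell death and autophagy class and -0.32 for the lysosomal class. At that level the cell death and autophagy class stood only 0.13 above all models. Of its 24 models there, 7 were past 2-fold in molestus (29.0% of all models called) and 0 in quinquefasciatus (14.2%). Rescaling by the median ratio of all models would lower every log2 ratio without a pseudocount by 0.30, and scaling factors by the trimmed mean of M-values (TMM) by 0.21.

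**Figure D1:**
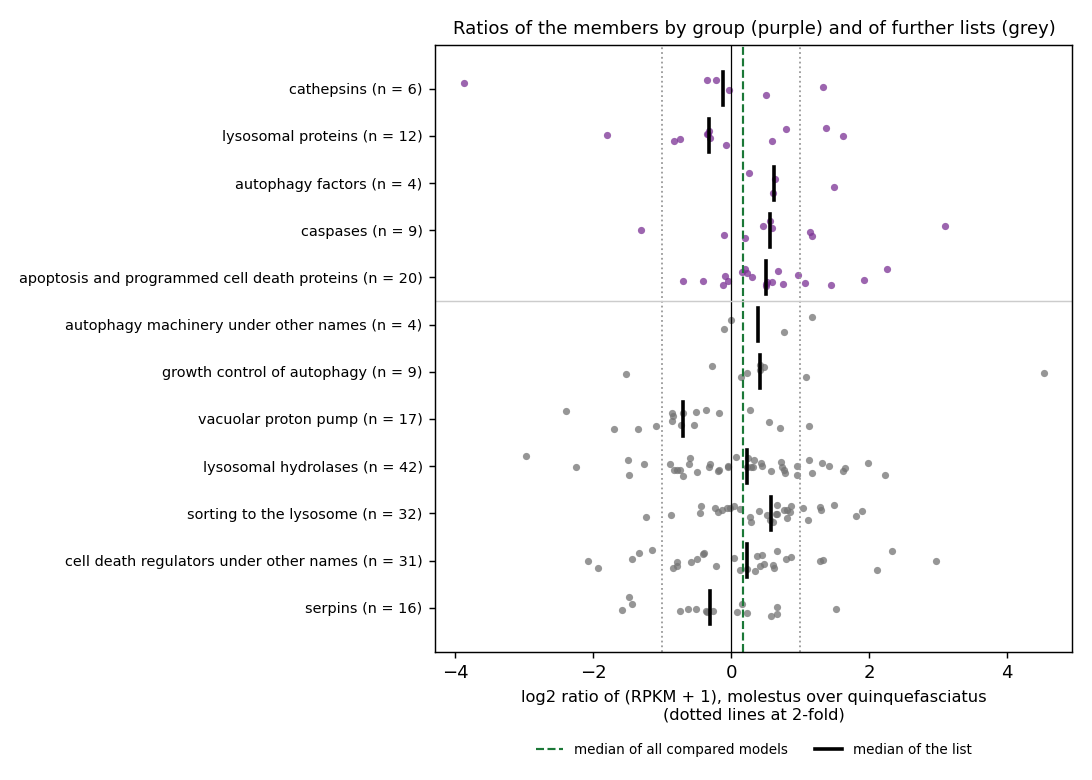
Each point is 1 transcript model, placed by its log2 ratio of (RPKM + 1), molestus over quinquefasciatus; the lines of points are the 5 member groups (purple) and 7 further lists (grey), with the number compared in brackets. Black bars mark list medians, the dashed line the median of all compared models (0.18). The 4 autophagy factors all lie to the right of that line, while the vacuolar proton pump has its median log2 ratio at -0.70.

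As shares of the library, the cell death and autophagy class held 0.290% of molestus reads (0.287 to 0.293) and 0.165% of quinquefasciatus reads (0.162 to 0.167). The lysosomal class held 0.209% (0.206 to 0.212) and 0.250% (0.247 to 0.253). A few abundant models carried these sums. The cell division cycle and apoptosis regulator alone made up 38.4% of the first class's reads in molestus and 24.5% in quinquefasciatus. A lysosome-associated membrane glycoprotein, a cathepsin L precursor and a lysosomal aspartic protease together made up 76.3% and 78.5% of the second class's reads.

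Caspase reads were more frequent in the molestus library, and 1 model held most of them there. A model described only as caspase precursor (CPIJ000671) had 775 molestus and 86 quinquefasciatus reads, or 86.3 against 9.22 RPKM. It was 9.36-fold higher in molestus (7.48 to 11.8), the widest ratio toward molestus among members with reads in both libraries. In the molestus library it stood above 90.5% of listed models, and in the quinquefasciatus library above 54.6%. Another caspase precursor (CPIJ009056) had 309 and 138 reads, at 38.1 and 16.4 RPKM, and was 2.33-fold higher in molestus (1.90 to 2.86). Caspase-6 (CPIJ002923), which is named for a mammalian caspase that acts late in the cascade, had 12 and 8.39 RPKM and was 1.43-fold higher (1.10 to 1.85).

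The remaining caspases stayed under 10 RPKM in both libraries. Caspase-8 (CPIJ014995) bears the name of the mammalian caspase that starts death-receptor signalling, whose Drosophila relative Dredd also acts in immune signalling. It had 7.10 and 4.35 RPKM and was 1.63-fold higher in molestus (1.2 to 2.24). The caspase precursor CPIJ008254 went the other way, with 27 molestus and 83 quinquefasciatus reads, and was 2.96-fold higher in quinquefasciatus (1.90 to 4.75). It was the single member of the cell death and autophagy class that passed 2-fold in that direction. The caspase-1 precursor CPIJ008253 had 6 reads in molestus and 0 in quinquefasciatus. Against an assumed floor of 3 reads this is 2.08-fold, a value that takes the 6 reads as exact. For the caspase-1 precursors CPIJ009057, CPIJ008093 and CPIJ012580, at most 5.28 RPKM in either library, the intervals of the fold included 1. A second caspase-6 model (CPIJ008066), with 4 and 0 reads, was too low to be compared.

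Over all 10 models described as caspases the reads summed to 1472 in molestus and 570 in quinquefasciatus, or 0.0150% (0.0143 to 0.0158) and 0.00561% (0.00516 to 0.00609) of each library. Caspases under other names are not in these sums. The model CPIJ000671 held 52.6% of the molestus caspase reads and 15.1% of the quinquefasciatus caspase reads. Without it, the shares of the library were 0.00712% (0.00660 to 0.00767) and 0.00476% (0.00435 to 0.00521). The intervals of these reduced shares, which cover counting error only, did not overlap either. Of the reads left, 309 in molestus and 138 in quinquefasciatus were those of CPIJ009056.

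All 4 autophagy factors were higher in the molestus library as deposited, each with an interval above 1. Of all compared models, 55.4% were higher there by any amount. Beclin (CPIJ011087), the homologue of yeast Atg6 and a subunit of the lipid kinase complex that starts the autophagosome, had 339 and 221 reads. Its level was 27.2 against 17.1 RPKM, 1.59-fold higher (1.34 to 1.90). The other models are described only as autophagy protein, without a number that would name the factor. Among them CPIJ002100, a short model of 366 bases, was the most abundant at 120 against 41.9 RPKM and was 2.86-fold higher (2.37 to 3.45). CPIJ015362 had 33.0 and 21.4 RPKM and was 1.54-fold higher (1.26 to 1.89). The difference was smallest for CPIJ012964, at 12.8 and 10.5 RPKM or 1.22-fold (1.04 to 1.43), and after rescaling by the median ratio this model fell just below 1, at 0.992-fold. For the other 3 factors, both scalings left the fold above 1.

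Inhibitors of apoptosis include proteins that bind caspases or promote their destruction. Of 8 models described as inhibitors of apoptosis, 7 were higher in molestus by any amount (87.5%, against 55.4% of all compared models) and 5 had intervals above 1. Not each of the 8 is described singly. Diap1 is the Drosophila inhibitor that keeps caspases inactive in living cells. Of 2 models of that name, CPIJ007306 had 949 and 651 reads, at 62.4 and 41.2 RPKM, and was 1.51-fold higher in molestus (1.37 to 1.68). The other, CPIJ006918, was low at 6.62 and 5.52 RPKM, and its interval of 0.763 to 1.89 included 1. Inhibitor of apoptosis CPIJ019231 had 27.5 and 13.5 RPKM and was 2.03-fold higher (1.72 to 2.41) without a pseudocount, a log2 ratio of 0.97 on the scale used for counting.

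The most abundant of the 8 was the one described as apoptosis inhibitor (CPIJ004812), at 85.7 against 52.9 RPKM and 1.62-fold higher in molestus (1.5 to 1.75). Models described as baculoviral IAP repeat proteins, of the same family, are not among the 8. Of these, CPIJ002102 was more abundant, at 152 and 199 RPKM, and higher in quinquefasciatus, and CPIJ006694 was higher in molestus. A very long inhibitor of apoptosis (CPIJ002689, 14376 bases) had 13.2 and 8.98 RPKM and was 1.47-fold higher (1.37 to 1.58). The xiap model CPIJ020323 had 15 and 12 reads, and the Fas apoptotic inhibitory molecule CPIJ012826 had 15 and 23. Both intervals included 1.

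Proteins that act on or from the mitochondrion split. Bok is a Bcl-2 family protein that in mammals promotes permeabilization of the outer mitochondrial membrane. The bok model CPIJ002200 had 542 molestus and 111 quinquefasciatus reads, at 66.9 and 13.2 RPKM, and was 5.07-fold higher in molestus (4.13 to 6.28). The bok model with the next identifier, CPIJ002201, had 57 and 102 reads, at 6.72 and 11.6 RPKM, and was 1.72-fold higher in quinquefasciatus (1.23 to 2.43). The 2 models thus stood in opposite order in the libraries. Apoptosis-inducing factor (CPIJ014897), a mitochondrial flavoprotein that in mammals moves to the nucleus of dying cells, had 67.7 and 47.3 RPKM and was 1.43-fold higher in molestus (1.30 to 1.57).

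The cell division cycle and apoptosis regulator protein (CPIJ018512), in mammals a nuclear coactivator of transcription, was the most abundant member outside the lysosomal class. It had 10895 and 4114 reads, at 286 and 104 RPKM, and was 2.75-fold higher in molestus (2.65 to 2.85).

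Of the 7 models named for programmed cell death, 1 passed 2-fold, toward molestus (14.3%, against 22.8% of all compared models). This was CPIJ015786, at 110.0 and 51.7 RPKM, 2.13-fold higher in molestus (1.95 to 2.32). Programmed cell death 6-interacting protein (CPIJ018276), known in mammals as Alix and active in membrane scission as well as in cell death, had 117 and 102 RPKM. It was 1.15-fold higher in molestus as deposited (1.09 to 1.22), but both scalings moved it below 1. CPIJ010589 was 1.72-fold higher in molestus (1.36 to 2.19). CPIJ007083 was 1.44-fold higher there (1.25 to 1.65). CPIJ016381 was 1.09-fold higher in quinquefasciatus (1.02 to 1.15), at 46.2 and 50.1 RPKM. For CPIJ008581 and CPIJ015208 the intervals included 1. Apart from CPIJ018276, the descriptions of these models give no number that would name the protein.

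**Figure D2:**
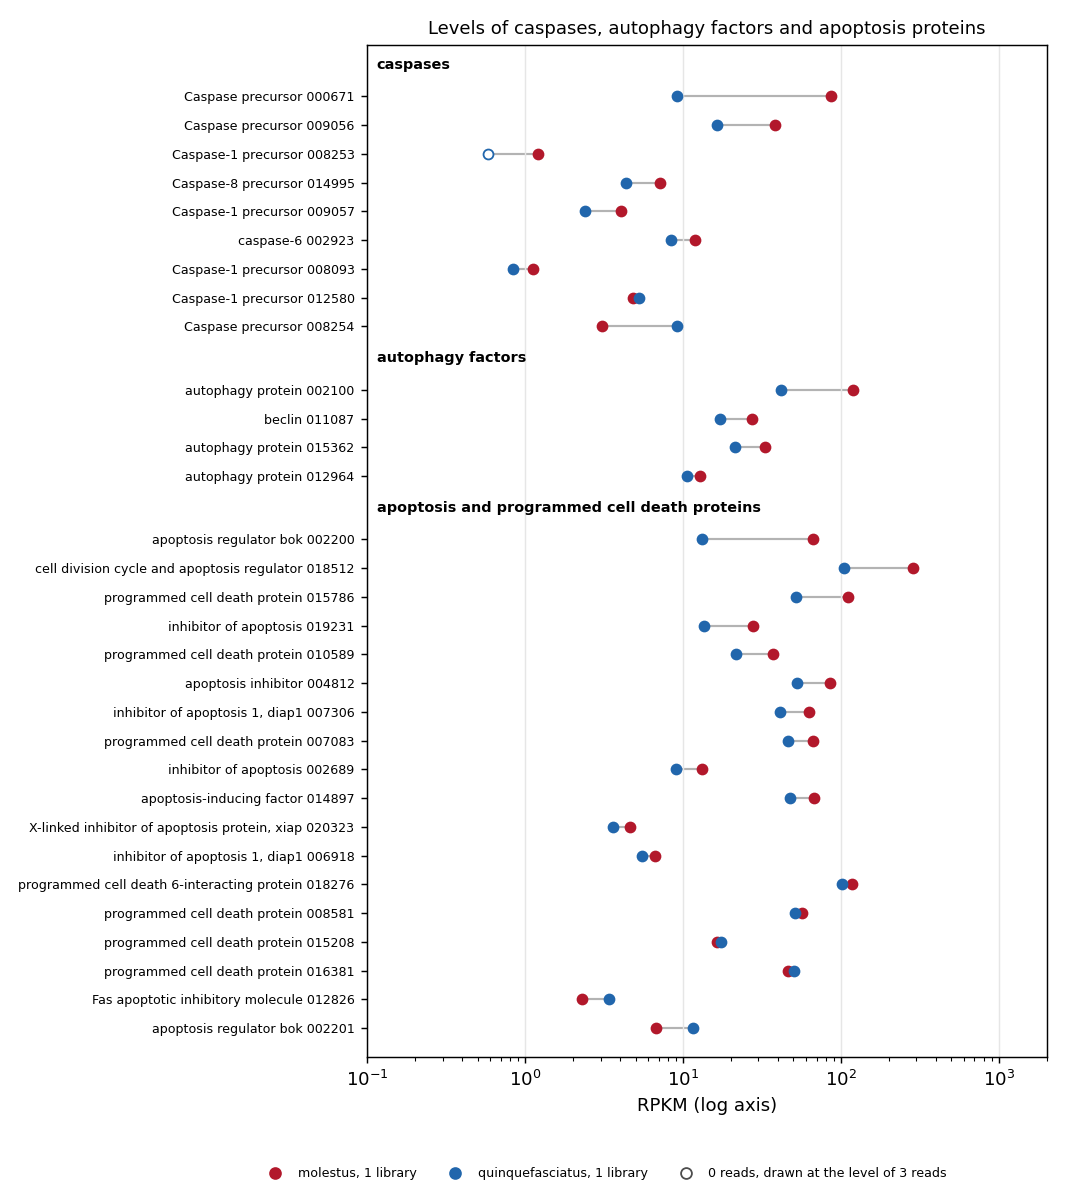
Levels in RPKM on a log axis for 31 of the 33 compared caspases, autophagy factors and apoptosis proteins, named by description and the digits of the CPIJ identifier; red is the molestus library, blue the quinquefasciatus library, 1 library each, without error bars. The caspase precursor CPIJ000671 (86.3 against 9.22 RPKM) and the bok model CPIJ002200 (66.9 against 13.2 RPKM) show the widest gaps toward molestus among models with reads in both libraries.

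The cathepsins were dominated by 1 model that did not differ beyond counting error. The cathepsin L precursor CPIJ006471, of a family of lysosomal endopeptidases, had 5884 molestus and 6240 quinquefasciatus reads. Its level was 439 against 448 RPKM, above 98.3% and 98.6% of listed models, with a quinquefasciatus over molestus interval of 0.985 to 1.06. After either scaling it stood lower in molestus, at 0.798-fold by the median ratio and 0.848-fold by TMM. The second cathepsin L model (CPIJ012982) had 1 read in all, and the cathepsin C model (CPIJ000566), named for a dipeptidyl peptidase, had 3.

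Of 5 compared cathepsin B models, 2 were higher in molestus by any amount (40%, against 55.4% of all compared models) and 3 in quinquefasciatus (60%, against 44.6%). Aedes aegypti, another mosquito, has a vitellogenic cathepsin B, a fat body product that oocytes take up with yolk. The most abundant model here, CPIJ000574, had 762 and 1010 reads, at 65.5 and 83.6 RPKM, and was 1.28-fold higher in quinquefasciatus (1.16 to 1.40). CPIJ008716 had 21.8 and 25.4 RPKM and was 1.17-fold higher in quinquefasciatus (1.03 to 1.33). The exception was CPIJ001239, with 31 molestus and 615 quinquefasciatus reads. At 3.02 against 57.7 RPKM it was 19.1-fold higher in quinquefasciatus (13.3 to 28.4), the widest ratio in either direction among members with reads in both libraries.

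Among the low cathepsin B models, 3 had reads in molestus alone. CPIJ015762 had 17 reads in molestus and 0 in quinquefasciatus, or 5.89-fold the floor of 3 reads with the 17 reads taken as exact. CPIJ015761, with the preceding identifier, had 6 and 0 reads, or 2.08-fold that floor. CPIJ001240, with the identifier after CPIJ001239, had 9 and 4 reads, and its interval of 0.652 to 10.4 included 1. CPIJ000575, the third with reads in molestus alone, had 1 and 0 reads, and CPIJ000577 had 2 and 3. Over all 8 cathepsin B models the reads summed to 1264 in molestus and 2160 in quinquefasciatus, or 0.0129% (0.0122 to 0.0137) and 0.0213% (0.0204 to 0.0222) of each library.

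Among lysosomal proteins, the lysosome-associated membrane glycoprotein (CPIJ011990), a heavily glycosylated protein of the lysosome's limiting membrane, was the most abundant of all 58 members. It had 7591 and 10045 reads, at 823 and 1049 RPKM, above 99.0% and 99.2% of listed models. The level was 1.27-fold higher in quinquefasciatus (1.24 to 1.31). The lysosomal aspartic protease (CPIJ017185), whose Aedes aegypti namesake is known from fat body cells that end yolk synthesis, had 2111 and 3684 reads. At 164 and 275 RPKM it was 1.68-fold higher in quinquefasciatus (1.59 to 1.77), the widest ratio among members above 100 RPKM in both libraries except for the 2.75-fold of CPIJ018512.

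Other acid hydrolases of the group were also higher in quinquefasciatus or had intervals that included 1. Lysosomal acid phosphatase (CPIJ008635) had 58.1 and 73.4 RPKM and was 1.26-fold higher in quinquefasciatus (1.15 to 1.39). The Pro-X carboxypeptidase CPIJ013280, which removes residues that follow proline, had 40.6 and 50.7 RPKM and was 1.25-fold higher there (1.12 to 1.39). A second Pro-X carboxypeptidase model (CPIJ008876) had 0 and 4 reads. The 3 alpha-mannosidases, which trim sugar chains in the lysosome, have consecutive identifiers and stayed under 7 RPKM. CPIJ015654 was 2.33-fold higher in quinquefasciatus (1.62 to 3.40). CPIJ015656 was 1.30-fold higher there (1.05 to 1.61), and for CPIJ015655 the interval included 1.

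A lysosome membrane protein (CPIJ003103) had 16 and 93 reads, at 1.16 and 6.49 RPKM, and was 5.60-fold higher in quinquefasciatus (3.27 to 10.2). The lysosomal members higher in molestus were a thiol reductase, a trafficking regulator and a glucosylceramidase. The gamma-interferon-inducible lysosomal thiol reductase, which in mammals opens disulfide bonds of proteins in the lysosome, had 2 models. CPIJ007524 had 406 and 158 reads, at 56.6 and 21.2 RPKM, and was 2.67-fold higher in molestus (2.22 to 3.23). CPIJ011966 had 46 and 11 reads and was 4.34-fold higher (2.22 to 9.30). The lysosomal trafficking regulator (CPIJ005368), which in mammals governs lysosome size, was 1.62-fold higher in molestus (1.45 to 1.82) at 7.30 and 4.50 RPKM. The glucosylceramidase that its own description calls non-lysosomal (CPIJ004679) was 1.78-fold higher in molestus (1.58 to 2.0).

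**Figure D3:**
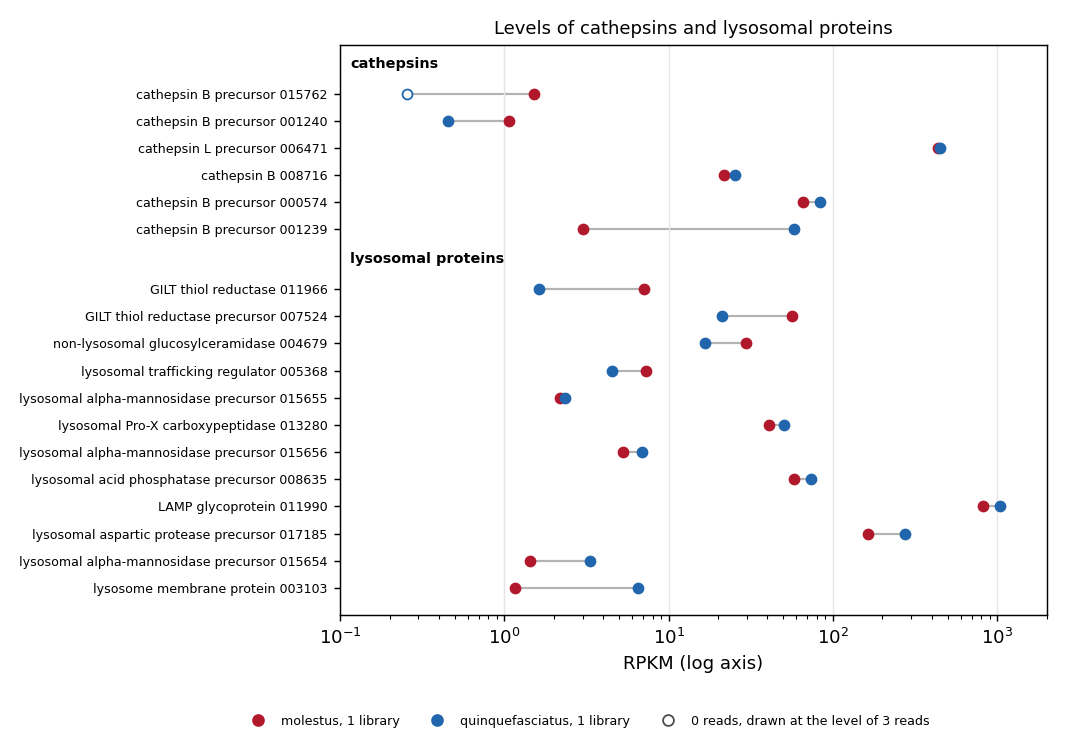
Levels in RPKM on a log axis for the 18 compared cathepsins and lysosomal proteins, drawn as for the cell death class; an open circle marks a library with 0 reads, placed at the level of 3 reads. The abundant models lie close together in both libraries, and the cathepsin B precursor CPIJ001239 (3.02 against 57.7 RPKM) has the widest gap.

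Read coverage was uneven in some members, among them the cathepsin B precursor and the bok model with wide ratios. Models with 1 read covered 90 bases, the read length, and with reads of that length placed evenly the covered share of a model follows from its reads and its length. In both libraries, 7 of the 51 compared members were covered by at least 20 percentage points less than even placement would give. The cathepsin B precursor CPIJ001239 was covered over 619 of its 1048 bases by 31 molestus reads and over 634 bases by 615 quinquefasciatus reads. The bok model CPIJ002200 was covered over 605 of 828 bases in both libraries, by 542 and 111 reads. For caspase-8 (CPIJ014995) the covered length was 817 and 800 of 1584 bases. In these 3 models the covered length thus differed little between libraries although the reads differed, and RPKM, which divides by the full model length, is lower for them than it would be over the covered part. The ratio between libraries is not changed by that length.

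The other models with such a shortfall were the caspase-1 precursor CPIJ012580, the alpha-mannosidase CPIJ015655 and a pair of very long models, the inhibitor of apoptosis CPIJ002689 and the lysosomal trafficking regulator CPIJ005368. The long models were covered further in molestus, over 7603 against 5148 and 7258 against 5090 bases. The caspase precursor with the widest ratio, CPIJ000671, was covered over 917 of 918 bases in both libraries. At least 90% of the length was covered in both libraries for 28 of the 51 members.

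**Figure D4:**
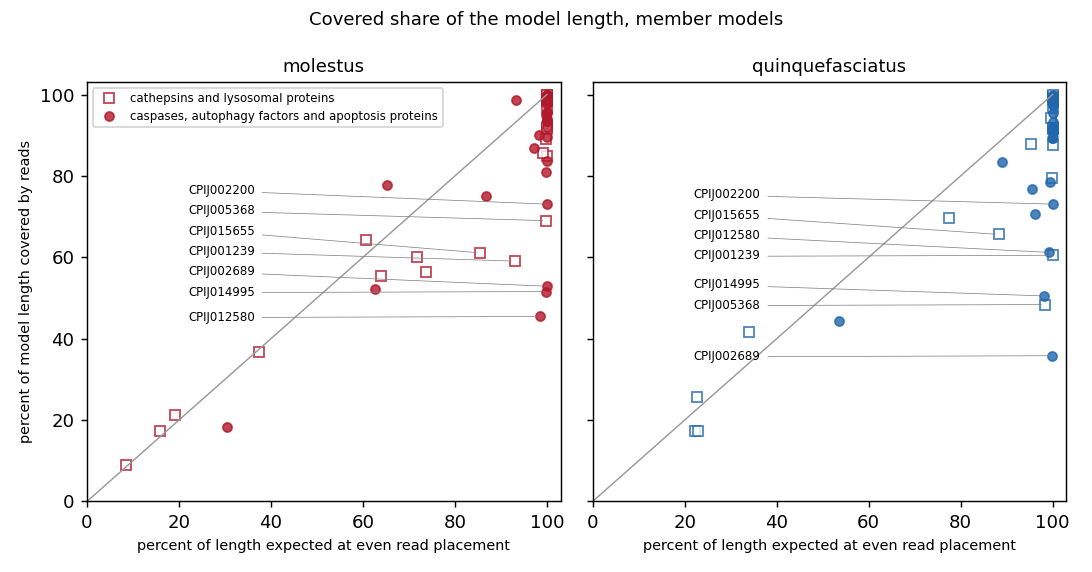
Percent of each member model's length covered by reads (vertical axis) against the percent expected if 90-base reads were placed evenly (horizontal axis), for every member with reads in that library; squares are cathepsins and lysosomal proteins, circles the other members, and the line marks equality. The 7 named models fall at least 20 percentage points under the line in both libraries.

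Some members with consecutive identifiers stood in opposite order and others did not. Opposite order was seen for the bok pair CPIJ002200 and CPIJ002201 and for the caspases CPIJ008253 and CPIJ008254. It was also seen for the cathepsin B pairs CPIJ001239 with CPIJ001240 and CPIJ000574 with CPIJ000575. In each of these pairs 1 model was higher in each library by its RPKM. In the caspase and cathepsin B pairs 1 model had few reads, 6 against 0 for CPIJ008253, 9 against 4 for CPIJ001240 and 1 against 0 for CPIJ000575. The caspases CPIJ009056 and CPIJ009057 and the cathepsin B models CPIJ015761 and CPIJ015762 both pointed to molestus, and the 3 alpha-mannosidases all pointed to quinquefasciatus. Close copies lose the reads that match more than 1 of them in tables of uniquely assigned reads, so the division of reads within such pairs is uncertain. How alike these models are was not measured, since no sequence was used here. Without the 15 members that have a consecutive neighbour in their class, a choice made after seeing the data, 5 of 27 models of the cell death and autophagy class reached 2-fold in molestus and 0 in quinquefasciatus, and the class median was 0.51.

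Genes of the same pathways under other names were read beside the members. Of 4 further models of the autophagy machinery, 1 reached 2-fold in molestus (25%, against 22.8% of all models) and 0 in quinquefasciatus. It was the kinase unc-51 (CPIJ001273), the Drosophila Atg1 that starts autophagy, at 51.3 against 22.3 RPKM and 2.30-fold higher (2.06 to 2.57). A WD repeat protein that binds phosphoinositides on the forming membrane (CPIJ009443) was 1.74-fold higher in molestus (1.47 to 2.07). The protease ATG4A (CPIJ004347), which processes the membrane tag Atg8, had 15.1 and 16.3 RPKM, with an interval of 0.870 to 1.33 for quinquefasciatus over molestus.

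Regulators of growth that restrain or release autophagy had a median log2 ratio of 0.41 (-0.27 to 1.08) over 9 models, an interval that included 0. Of the 9, 2 were past 2-fold in molestus (22.2%, against 22.8% of all models) and 1 in quinquefasciatus (11.1%, against 18.0%). Rheb (CPIJ008365), the GTPase that activates the TOR kinase, was 2.14-fold higher in molestus (1.87 to 2.45), at 122 and 57.0 RPKM. The catalytic subunit of AMP-activated protein kinase (CPIJ002898), a sensor of low energy, was 1.40-fold higher there (1.29 to 1.52). Tuberin, the inhibitor of Rheb, had 4 models, and CPIJ019306 among them had 828 molestus and 10 quinquefasciatus reads, 86.0-fold higher (46.5 to 180). The more abundant tuberin models CPIJ007912 and CPIJ003509, named here after their values were seen, had 35.8 and 35.4 RPKM in molestus and 32.1 and 29.9 RPKM in quinquefasciatus. The model past 2-fold in quinquefasciatus was the fourth tuberin, CPIJ005112, with 0 and 16 reads, also named after its values were seen.

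The vacuolar proton pump, which acidifies lysosomes and also energizes ion transport in gut and Malpighian tubules, leaned to quinquefasciatus. Of 17 compared models, 13 were higher there by any amount (76.5%, against 44.6% of all compared models). Past 2-fold were 4 in quinquefasciatus (23.5%, against 18.0%) and 1 in molestus (5.88%, against 22.8%). The median was -0.70 (-0.86 to -0.17). Subunit e (CPIJ013144), the most abundant, had 316 and 567 RPKM and was 1.80-fold higher in quinquefasciatus (1.70 to 1.90). Subunit G (CPIJ006975) was 2.57-fold higher there (2.34 to 2.82). The large membrane subunit A model CPIJ017010 was 5.74-fold higher there (4.94 to 6.70). Another subunit A model, CPIJ003274, was 2.24-fold higher in molestus (2.06 to 2.43).

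Lysosomal hydrolases under other names had a median of 0.24 (-0.30 to 0.58) over 42 models. Past 2-fold were 8 in molestus (19.0%, against 22.8% of all models) and 5 in quinquefasciatus (11.9%, against 18.0%). The interval of the median overlapped that of the lysosomal members, and the difference was not tested. The list held 0.1545% of molestus and 0.1623% of quinquefasciatus reads. Saposin (CPIJ014133), whose products help enzymes reach lipids in the lysosome, was 1.86-fold higher in quinquefasciatus (1.80 to 1.93), at 137 and 255 RPKM. Beta-glucuronidase (CPIJ001433) was 1.64-fold higher there (1.48 to 1.82). The widest ratios toward quinquefasciatus were at lower levels, under 10 RPKM. They were those of the sphingomyelin phosphodiesterases CPIJ012158, with 4 and 159 reads, and CPIJ012159, with 8 and 113. Both are named after their values were seen. Tripeptidyl-peptidase (CPIJ013852) was 4.98-fold higher in molestus (4.53 to 5.47). Deoxyribonuclease II (CPIJ015966), which digests DNA of engulfed cells, was 4.54-fold higher there (3.37 to 6.22). The word list also took in phosphatases and ceramidases that act outside the lysosome.

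Proteins of sorting to the lysosome, mostly vacuolar protein sorting subunits, had a median of 0.58 (0.04 to 0.81) over 32 models, with 7 past 2-fold in molestus and 1 in quinquefasciatus. The molestus share of 21.9% was near the 22.8% of all models, and the quinquefasciatus share was 3.12%, against 18.0%. The interval of the median held the 0.18 of all models. The subunit vps41 (CPIJ010406) was 4.07-fold higher in molestus (3.47 to 4.80). The subunit SNF8 (CPIJ010671), part of the machinery that sorts membrane proteins into endosomes, was 2.47-fold higher in quinquefasciatus (1.92 to 3.20). The mannose-6-phosphate isomerase taken in by the list's words, 3.67-fold higher in molestus (3.13 to 4.33), is an enzyme of sugar metabolism.

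Regulators of cell death under other names went both ways, with 5 of 31 compared models past 2-fold in each library. This share of 16.1% was under the 22.8% of all models in molestus and the 18.0% in quinquefasciatus. The median was 0.23 (-0.49 to 0.61). The models described below are not all of those with wide ratios. The cell death protein 3 precursor CPIJ017008 had 2 molestus and 34 quinquefasciatus reads, and another of that description, CPIJ016551, had 4 and 3. Both are named after their values were seen. The baculoviral IAP repeat protein CPIJ002102, of the same family as the inhibitors above, had 152 and 199 RPKM and was 1.31-fold higher in quinquefasciatus (1.24 to 1.40). A shorter model of that description, CPIJ006694, was 5.43-fold higher in molestus (3.92 to 7.68). The 2 LITAF-like models CPIJ015442 and CPIJ015443, named for a factor that regulates tumour necrosis factor in mammals, were higher in quinquefasciatus, by 4.29-fold (3.65 to 5.08) for the first and 2.53-fold (2.29 to 2.80) for the second.

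Protease inhibitors gave 16 compared models with a median of -0.31 (-0.74 to 0.58). Past 2-fold were 1 in molestus (6.25%, against 22.8% of all models) and 3 in quinquefasciatus (18.8%, against 18.0%). All were serpins, which mostly inhibit serine proteases, and 0 of the descriptions held the word cystatin, the family that inhibits cathepsins. Serpin B3 (CPIJ011775) was the most abundant and 2.90-fold higher in molestus (2.72 to 3.11). Serpin B4 (CPIJ016697) was 1.60-fold higher there (1.47 to 1.74). Serpin B9 (CPIJ013205) was 1.69-fold higher in quinquefasciatus (1.48 to 1.94), and serpin B6 (CPIJ014719) was 1.30-fold higher there (1.15 to 1.47).

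Markers of several tissues also differed between the libraries. For comparison, 22.8% of all compared models were past 2-fold in molestus and 18.0% in quinquefasciatus. Of 19 ovary and germline models, 11 were past 2-fold in molestus and 4 in quinquefasciatus, with summed levels of 1439 and 489 RPKM and 0 models at 0 reads. Midgut digestive enzymes went the other way, with 48 of 84 compared models past 2-fold in quinquefasciatus and 4 in molestus. Their summed levels were 2526 and 15203 RPKM, and of 131 models 23 were at 0 reads in molestus and 10 in quinquefasciatus. Muscle models were past 2-fold in quinquefasciatus for 17 of 33 and in molestus for 2, with summed levels of 1937 and 3445 RPKM.

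Of 13 compared fat body models, 11 were higher in quinquefasciatus by any amount (84.6%, against 44.6% of all compared models). Past 2-fold were 2 in quinquefasciatus (15.4%, against 18.0%) and 1 in molestus (7.69%, against 22.8%). The median was -0.67 (-0.94 to -0.001). The summed levels of 614 and 541 RPKM ran the other way through a vitellogenic carboxypeptidase (CPIJ008608), at 371 and 146 RPKM, and without it they were 244 and 396 RPKM. Of 29 such models, 6 were at 0 reads in molestus and 5 in quinquefasciatus, and the vitellogenin models, the yolk precursors that define the list, reached at most 2.26 RPKM (CPIJ009271, named after its values were seen). The hemocyte list had 4 compared models of 8, 0 past 2-fold in either direction, with 175 and 143 RPKM in sum, nearly all from croquemort models. Without the most abundant of these, CPIJ017039, the sums were 58.6 and 68.1 RPKM. Its prophenoloxidase model CPIJ016563, named after its values were seen, stood at 0.474 and 0.274 RPKM, and 1 of the 8 models was at 0 reads in molestus. The part of tissue content in the ratios of the members was not tested.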

How the data were processed

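The authors deposited, per the file headers, the count of uniquely assigned reads, the RPKM, the percent of the model length covered and the length for each transcript model of 1 library per taxon. The sources used here name no aligner, counting tool or gene model release. Reads of both libraries were assigned to models of the same identifiers. How far the sequence of either taxon differs from these models, and whether this cost reads, was not tested. Of all 16198 models, 1364 had 0 reads in molestus and 760 in quinquefasciatus. The deposited counts summed to the totals in the headers, and a model missing from 1 table counted as 0 reads there. Deposited RPKM recomputed from count, length and total differed by at most 5e-08 in relative terms. The labels describe non-directional libraries, so overlapping antisense genes cannot be told apart.

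The tables were joined on the model identifier. Folds are ratios of RPKM with exact Clopper-Pearson intervals (each model's reads in 1 library as a binomial share of its reads in both). Where a library had no reads, the value is against a floor of 3 reads. It takes the other count as exact and has no interval. List medians have exact order-statistic intervals. Members with at least 10 RPKM and 50 reads in the higher library were to be described in full and those with at least 1 RPKM named. Folds of lower members and the 7 under 1 RPKM were added to account for the members. Single values of a few models are not reported here, although the counts, medians and sums include them. Further lists were limited to 3 abundant models and 2 of the widest ratio in each direction, all at the same minimum of 10 RPKM and 50 reads. Models under that minimum can have wider ratios and are mostly not described. Members and lists were chosen with earlier results of these data known. Alternatives were other pseudocounts, filters, scalings, thresholds, a coverage minimum and narrower patterns. The procedure was also run on simulated counts with known folds and counting error only. These held no replicate error and no shift between the libraries, so the run cannot speak to either. Python 3.11.15, numpy 2.4.6, pandas 2.3.3, scipy 1.17.1, matplotlib 3.10.9 and edgeR 4.0.16 in R 4.3.3 (TMM factors 1.07 for molestus and 0.931 for quinquefasciatus) were used.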

Additional observations from a re-analysis of the deposited data

How the results depend on the processing

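No paired analysis was possible because each taxon had 1 library, and for the same reason no replicate could be left out. The median of the cathepsins and lysosomal proteins stayed negative under all alternatives, and moved below its main interval after rescaling by the median ratio (-0.53) and with TMM factors (-0.45). Relative to the median of all models it ranged from -0.79 (minimum of 10 RPKM) to -0.20 (no filter). The median of the cell death and autophagy class stayed positive, and relative to all models it ranged from 0.13 (minimum of 10 RPKM) to 0.47 (no filter). Its interval reached -0.01 after rescaling by the median ratio.

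The counts past 2-fold were small and moved more. For the lysosomal class, the counts were 1 in each direction at a pseudocount of 10 and at a minimum of 10 RPKM, 4 were higher in quinquefasciatus after rescaling by the median ratio, and 1 without consecutive identifiers. At a 4-fold threshold the counts were 0 in molestus and 1 in quinquefasciatus. With 0 reads set to 3 reads, 2 were higher in molestus (22.2% of all models called). For the cell death and autophagy class, the molestus count was 5 at a pseudocount of 10 (10.4% of all models called), after rescaling by the median ratio (15.7%) and without consecutive identifiers (22.8%), and 2 at 4-fold (4.81%). Its quinquefasciatus count was 0 at a pseudocount of 10, at a minimum of 10 RPKM, at 4-fold and without consecutive identifiers. With 0 reads set to 3 reads, its molestus count was 7 (22.2%). Of 49 single folds, CPIJ012964 turned to 0.992-fold by the median ratio, and CPIJ018276 to 0.938-fold by the median ratio and 0.998-fold by TMM. CPIJ006918 (0.976-fold by the median ratio) and CPIJ008581 (0.908-fold, and 0.966-fold by TMM), whose intervals included 1 as deposited, also crossed 1. The cause of these shifts was not tested beyond the scale itself.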
